A study of Homo sapiens with 12 samples.

Results

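The 9 genes of glucose sensing named here were described in a human liver cell line, namely TXNIP, its relatives ARRDC1, ARRDC2, ARRDC3 and ARRDC4, the glucose-sensing transcription factors MLXIP and MLXIPL, their partner MLX, and KLF10. They were chosen by name from the 18404 genes that the array's annotation pairs with a probe set of exactly 1 symbol, and all 9 were found. The measured value in this choice was the mean over 12 arrays, which picks among several probe sets of a gene, and it had no effect because each of the 9 had 1 probe set. The genes were put together with earlier results of these data known. TXNIP and ARRDC4 had their lowest values in untreated Petri cultures and rose there under acetaminophen, by 2.79-fold and 2.11-fold. Both were higher in the microsystem than in Petri dishes, and so were ARRDC1, MLXIPL and KLF10. Of all genes tested, 44.9% passed between the cultures in controls and 41.4% in treated cells. The TXNIP call in treated cells was lost without some single arrays.

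The study hybridised RNA of HepG2C3A cells to 12 Affymetrix arrays of the Human Gene ST type, 3 for each of 4 groups. HepG2C3A is an established line from a liver tumour that keeps many hepatocyte functions, and all groups were this line. The labels set the groups apart by culture and treatment and name no batch. Control cells in Petri dishes and control cells in a microsystem received no drug, and treated cells in Petri dishes and in the microsystem received acetaminophen, an analgesic that the liver turns in part into a reactive quinone imine. Culture lasted 96 h, of which 72 h were with acetaminophen in the treated groups, and all cells were detached with trypsin before RNA was extracted. For the dose, the glucose in the medium and the make of the microsystem, the sources used here give nothing. Petri treated replicate 3 is marked by an unexplained asterisk in its label.

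In liver cells, glucose that has entered and been phosphorylated activates 2 related transcription factors, MondoA (encoded by MLXIP) and ChREBP (encoded by MLXIPL), each of which binds DNA as a pair with MLX. Among their direct targets are TXNIP and ARRDC4, alpha-arrestins that take glucose transporters off the cell surface and so lower glucose uptake. TXNIP also binds and inhibits thioredoxin, and alpha-arrestins in general act as adaptors for ubiquitin ligases of the NEDD4 type.

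The deposited log2 values had medians of 5.556 to 5.629 per array, and across probe sets the r of 2 arrays of a group was 0.991 to 0.995. The third principal component, with 6.77% of the variance, set both microsystem arrays numbered 3 apart, so each count of the 9 genes that passed is also given without them. Of 9 hepatocyte marker genes, 8 had a probe set with 1 symbol here, and all 8, among them ALB, AFP, TTR and APOB, were above the 40th percentile of their array on every array. The mean of the 8 lay between 11.33 and 11.68 in every group. Other cell types were checked in the same way. Of 3 leukocyte markers 2 and of 4 endothelial markers 3 were under the 40th percentile on all 12 arrays, while CD14 was above it on all 12, and the means of both lists stayed between 3.65 and 4.27. Of 6 fibroblast and stellate cell markers 4 (COL1A1, COL1A2, COL3A1 and PDGFRB) were above it on all 12 arrays, and the mean of the 6 was 4.64 to 4.69 in Petri controls, 4.55 to 4.57 in Petri treated, 4.61 to 4.65 in microsystem controls and 4.49 to 4.64 in microsystem treated arrays. Their part in the results was not tested. The labels do not say whether replicates were separate cultures, so the p-values rest on a spread that may be only technical. With 3 arrays a group, precision is limited by the number of arrays.

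The promoters of TXNIP and ARRDC4, the 2 genes that rose under acetaminophen in Petri dishes, are printed. The 250 bases before the gene start are shown on the gene's strand, from RefSeq's annotation of GRCh38.p14, which had an entry for 8 of the 9 genes. TXNIP lies at chr1:145996580-145996829 on the minus strand (the first of its 2 starts) and ARRDC4 at chr15:97960453-97960702 on the plus strand. Capitals mark CCAAT boxes (CCAAT, or ATTGG where the box is on the other strand) and the window most like a carbohydrate response element, the paired E-box that ChREBP and MondoA bind, searched as CACGTG, any 5 bases and CACGTG again, which reads the same on both strands.
TXNIP: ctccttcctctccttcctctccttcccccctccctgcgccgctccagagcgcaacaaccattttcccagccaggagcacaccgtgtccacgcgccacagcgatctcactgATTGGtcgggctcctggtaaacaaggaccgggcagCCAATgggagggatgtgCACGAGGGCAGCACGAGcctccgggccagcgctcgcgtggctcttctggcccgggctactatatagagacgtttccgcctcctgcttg
ARRDC4: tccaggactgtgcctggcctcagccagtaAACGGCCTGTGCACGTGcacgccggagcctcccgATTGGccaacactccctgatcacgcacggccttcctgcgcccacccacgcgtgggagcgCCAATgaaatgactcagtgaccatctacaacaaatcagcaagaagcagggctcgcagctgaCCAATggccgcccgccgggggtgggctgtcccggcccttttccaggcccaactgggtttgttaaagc
The best windows of 17 bases follow, with capitals for the letters that match the 12 fixed ones.
TXNIP: CACGaGggcagCACGaG
ARRDC4: aACGgcctgtgCACGTG
MLX: CggGcGcgggtCACGTG
MLXIPL: CACcgGgttctCACcTG
The window of TXNIP starts 88 bases before the gene start and matched 10 of 12 letters. Of 35116 promoters of the same length 0.849% matched at least as well, and the median promoter matched 7. Those of ARRDC4, MLX and MLXIPL matched 9 letters, which 7.76% of promoters reached. One start each of ARRDC2 and ARRDC3 also matched 9 letters, the MLXIP promoter 8, and that of ARRDC1 and the other starts of TXNIP and ARRDC2 7, while the other start of ARRDC3 matched 8. ARRDC4 and MLX held a single complete E-box, CACGTG, which 6.34% of promoters had, and TXNIP had none. TXNIP had 2 CCAAT boxes and ARRDC4 had 3, numbers that 9.53% and 2.93% of promoters reached. A match of letters is a description and not a measured binding site.

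TXNIP (probe set 7904726) was lowest and most variable in untreated Petri cultures. Its log2 intensities in Petri controls were 9.44, 8.0 and 8.84 in replicates 1, 2 and 3 (8.76 ± 0.73, SD, n = 3), and in Petri treated cells 10.60, 10.04 and 10.08 (10.24 ± 0.31). Every treated array lay above every control array. In the microsystem the controls stood at 11.03, 11.00 and 10.64 (10.89 ± 0.22) and the treated cells at 10.80, 11.18 and 11.04 (11.01 ± 0.19), with overlapping ranges. The order of the means was thus microsystem treated, microsystem control, Petri treated and Petri control, and only the upper 2 neighbours overlapped. In Petri dishes TXNIP rose under acetaminophen by 1.48 ± 0.27 (log2 difference ± SE, limma adjusted p = 0.00429), the 10th largest difference of 13199 genes tested. In the microsystem the difference was 0.12 ± 0.27 (adjusted p = 0.81), with a 95% interval from -0.47 to 0.71.

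ARRDC4 (probe set 7986350), the closest relative of TXNIP in function, followed the same order of groups. Petri controls gave 5.06, 4.79 and 5.01 (4.95 ± 0.14), of which 2 of 3 arrays exceeded the 40th percentile of their array (4.805 to 4.898 over the arrays) and all 3 the 25th. Petri treated cells gave 5.99, 6.07 and 6.02 (6.03 ± 0.04), all above the controls. Microsystem controls stood at 7.82, 7.74 and 8.04 (7.87 ± 0.16) and microsystem treated cells at 8.03, 8.22 and 8.62 (8.29 ± 0.31), where treated replicate 1 lay just under control replicate 3. Acetaminophen raised ARRDC4 in Petri dishes by 1.08 ± 0.13 (limma adjusted p = 0.000345), with an interval from 0.79 to 1.37. The control values under this rise lie near the 40th percentile of their arrays, so its size is limited by that level. In the microsystem the difference of 0.42 ± 0.13 did not pass (adjusted p = 0.0664), and without microsystem treated replicate 1 it was 0.55 and passed (adjusted p = 0.0293). It also passed with the replicate number as a block over all arrays (adjusted p = 0.0362) or within each culture (0.0159). Since the cells were measured in bulk, more cells with a transcript and more transcript per cell cannot be told apart.

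**Figure D1:**
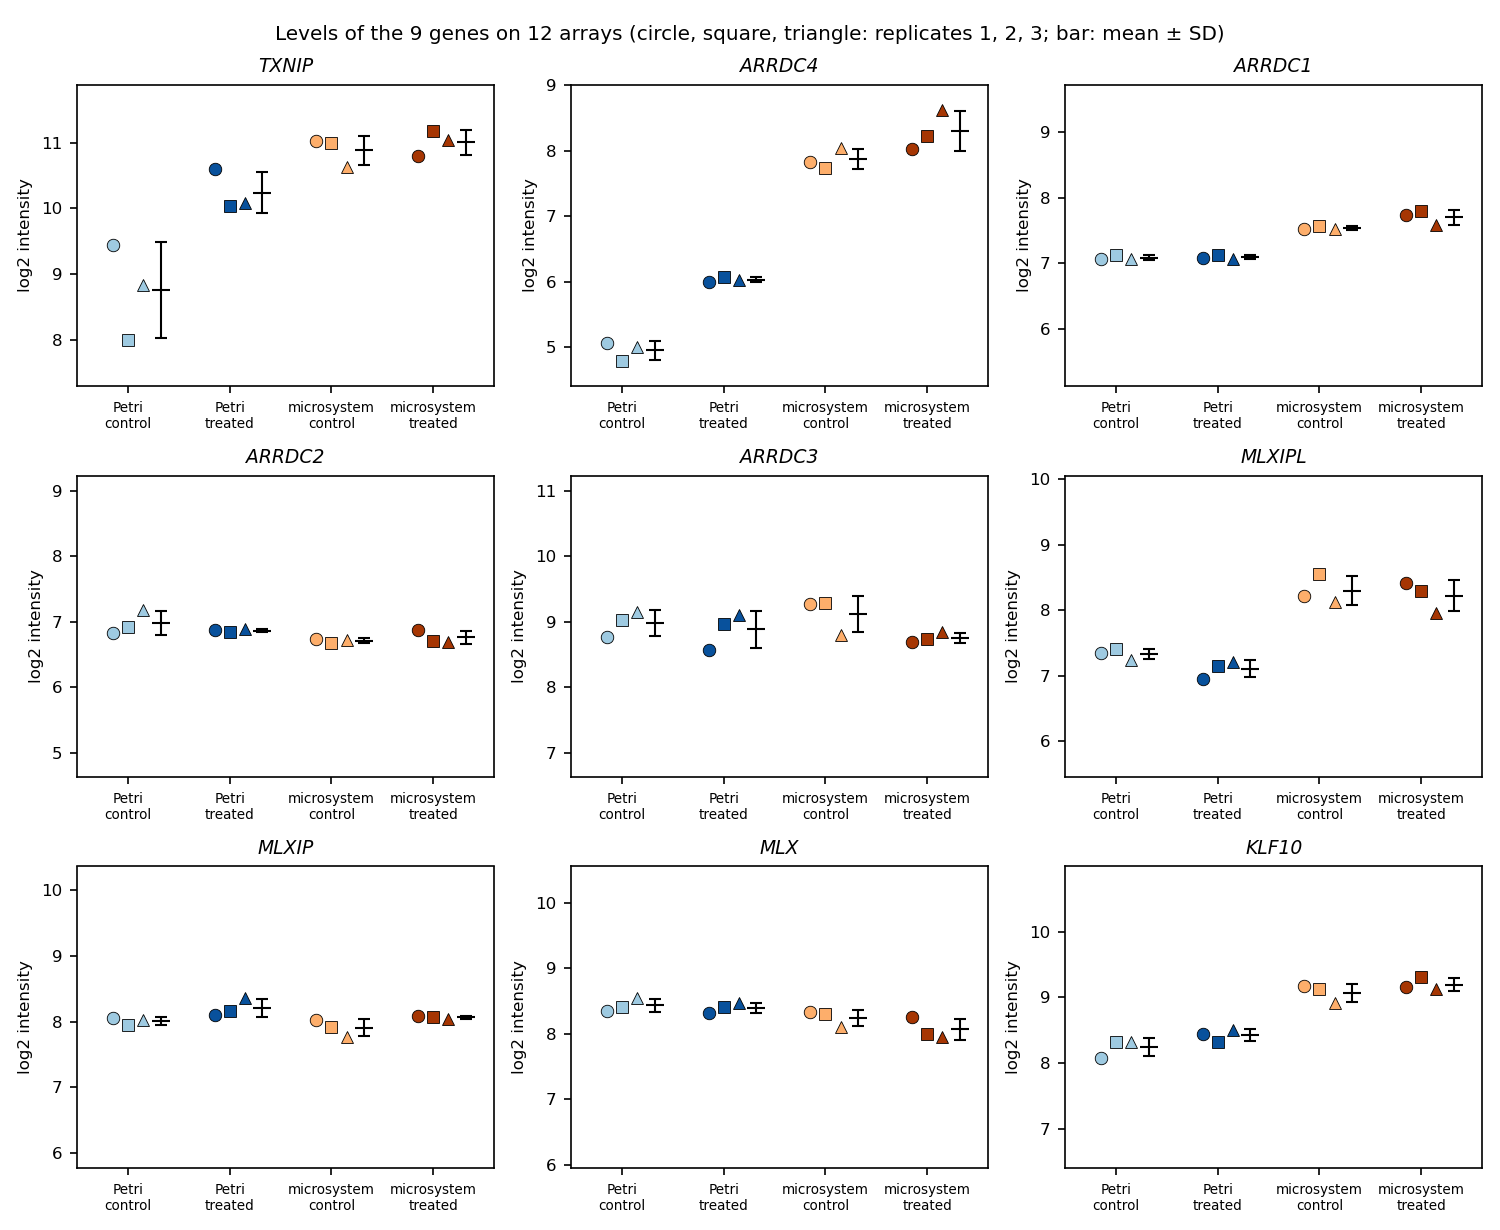
Log2 intensity of each of the 9 genes on each of the 12 arrays, by group, with replicates 1, 2 and 3 as circles, squares and triangles and a black bar for mean ± SD (n = 3). Every panel spans the same height on the log2 scale. TXNIP climbs from 8.76 to 11.01 and ARRDC4 from 4.95 to 8.29 across the group means, while ARRDC2, ARRDC3, MLX and MLXIP vary little.

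The first question was what acetaminophen changed among the 9 genes in Petri dishes. TXNIP and ARRDC4 rose and the other 7 did not pass, against 10.4% of all genes tested that passed, 8.38% upwards and 1.98% downwards. The median difference of the 9 was 0.01, as it was for all genes. MLXIP, the gene of MondoA, stood at 8.05, 7.94 and 8.02 in Petri controls and at 8.10, 8.16 and 8.36 in treated cells. Its treated arrays were all higher, but the difference of 0.20 ± 0.09 did not pass (limma adjusted p = 0.168). MLXIPL, the gene of ChREBP, was at 7.35, 7.40 and 7.25 without the drug and at 6.96, 7.15 and 7.22 with it. These ranges were also apart, downwards, and the difference of -0.22 ± 0.13 did not pass (adjusted p = 0.301). Of the 9, TXNIP, ARRDC4 and MLXIP had ranges apart upwards and MLXIPL downwards, and of all genes tested 34.5% did, 21% upwards and 13.5% downwards. KLF10 differed by 0.18 (interval -0.03 to 0.39), ARRDC1 by 0.01 (-0.15 to 0.17), ARRDC2 by -0.11 (-0.31 to 0.09), ARRDC3 by -0.10 (-0.43 to 0.24) and MLX by -0.04 (-0.25 to 0.18). Without both microsystem arrays numbered 3, the count of 2 that rose was unchanged.

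In the microsystem, limma called 0 of the 9 genes under acetaminophen, where 9.06% of all genes passed (6.39% upwards and 2.67% downwards), and 2 of the 9 had an unadjusted p under 0.05. These 2 were ARRDC4, at 0.42, and ARRDC3, an adaptor in the breakdown of surface receptors, at -0.37 ± 0.15 (adjusted p = 0.154). ARRDC3 gave 9.26, 9.29 and 8.81 in microsystem controls and 8.68, 8.74 and 8.84 in treated cells, so that control replicate 3 lay inside the treated range. ARRDC1 differed by 0.16 (interval -0.00 to 0.32) and MLXIP by 0.16 (-0.03 to 0.35), each with treated arrays all above the controls. Of all genes 27.6% had their ranges apart, 15.2% upwards and 12.4% downwards. MLXIPL differed by -0.08 (interval -0.36 to 0.20), KLF10 by 0.13 (-0.09 to 0.34), MLX by -0.18 (-0.39 to 0.03) and ARRDC2 by 0.05 (-0.15 to 0.25). Without both arrays numbered 3 the count that passed was again 0. With the replicate number as a block it was 1, ARRDC4 (adjusted p = 0.0362).

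Whether the drug acted differently in the 2 cultures was tested as the difference of the treatment effects, microsystem minus Petri. Again 0 of the 9 genes passed in limma, and 2 had an unadjusted p under 0.05, TXNIP and ARRDC4. Over all genes 0.0303% passed, 0.00758% upwards and 0.0227% downwards. The effect on TXNIP was smaller in the microsystem by 1.36 on the log2 scale (difference -1.36 ± 0.39, interval -2.19 to -0.53, adjusted p = 0.386), the 2nd lowest value of 13199 genes. For ARRDC4 the difference was -0.65 ± 0.19 (interval -1.06 to -0.25, adjusted p = 0.394), and its size is limited by the low Petri control values. Over the alternatives the adjusted p ran from 0.0511 to 0.719 for TXNIP and from 0.0596 to 0.749 for ARRDC4, and neither passed in any. Without both microsystem arrays numbered 3 the count of the 9 was again 0. The other 7 genes lay between -0.27 and 0.16. Both treatment effects enter this difference, so it shares its arrays with the comparisons above.

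**Figure D2:**
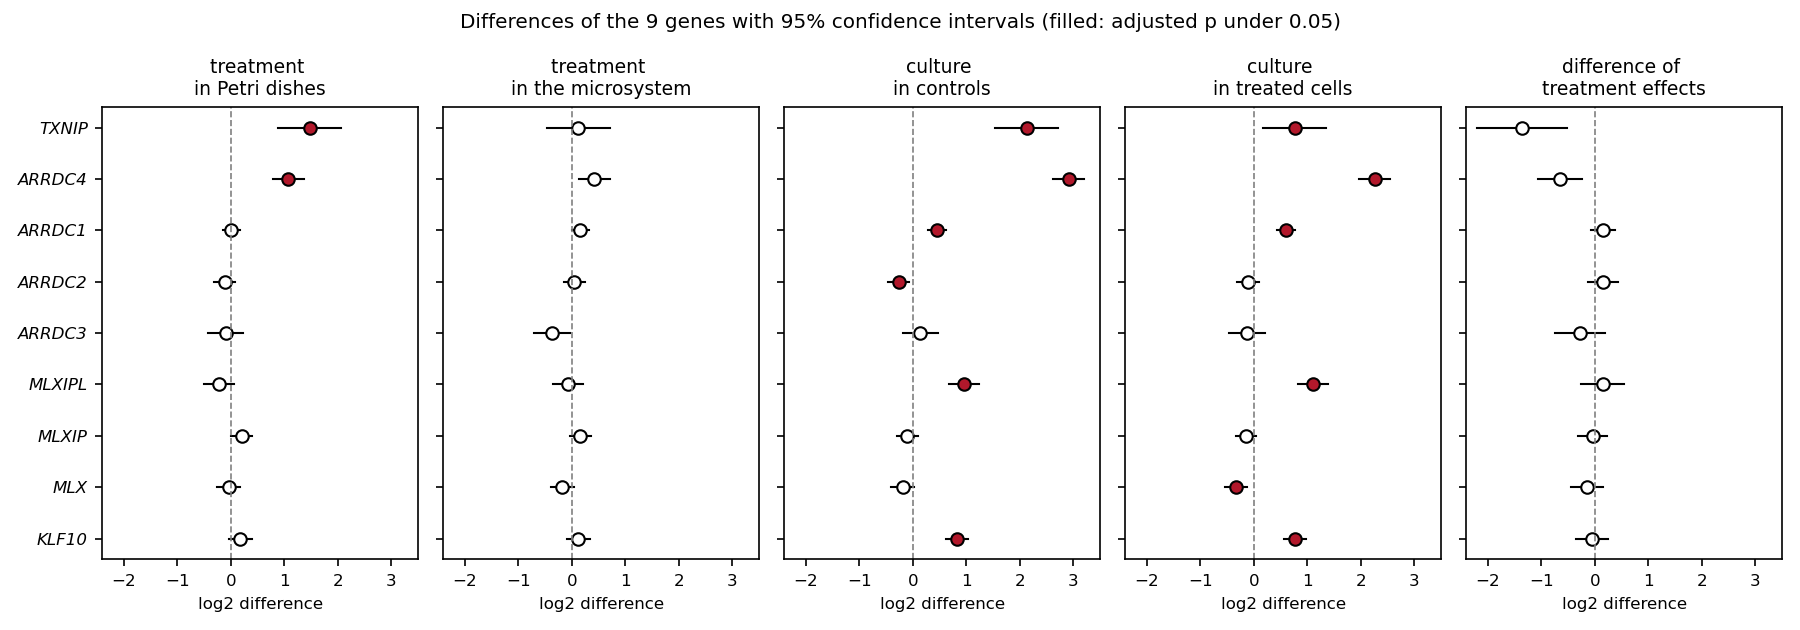
Log2 differences of the 9 genes (points) with 95% confidence intervals (lines) in the 5 comparisons, with filled points where the limma adjusted p was under 0.05. Treatment is treated minus control, culture is microsystem minus Petri, and the last panel is the treatment effect in the microsystem minus that in Petri dishes. TXNIP and ARRDC4 are the 2 filled points under treatment in Petri dishes, and ARRDC4 has the largest culture difference, 2.92 in controls.

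The second question was how the 9 genes differed between the cultures. In untreated cells 5 of the 9 were higher in the microsystem and 1 was lower, so 6 passed, against 44.9% of all genes, 26.5% upwards and 18.3% downwards. The median of the 9 was 0.45 and that of all genes 0.01. ARRDC4 was higher by 2.92 ± 0.13 (7.55-fold, limma adjusted p = 1.81e-08), the 4th largest difference of 13199 genes. That fold rests on Petri control values at the level of the filter, 1 of them under it, so it is limited by that level. TXNIP was higher by 2.13 ± 0.27 (4.37-fold, adjusted p = 3.94e-05) and ranked 18th. In treated cells ARRDC4 was higher by 2.26 ± 0.13 (4.8-fold, adjusted p = 9.96e-08), and TXNIP by 0.77 ± 0.27 (1.7-fold, adjusted p = 0.037). The TXNIP call in treated cells was lost without microsystem treated replicate 2 (adjusted p = 0.113) or 3 (0.076), without Petri treated replicate 2 (0.118) or 3 (0.112), and without both microsystem arrays numbered 3 (0.0741). The 2 comparisons of culture use different arrays but share 1 estimate of the spread from all 12. For TXNIP that estimate holds the SD of 0.73 in Petri controls, where Petri treated and microsystem treated cells had 0.31 and 0.19.

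MLXIPL (probe set 8140085), the glucose-sensing factor typical of liver, was higher in the microsystem. It stood at 8.22, 8.55 and 8.12 in microsystem controls (8.30 ± 0.22) and at 8.41, 8.29 and 7.96 in treated cells there (8.22 ± 0.24). All 6 values exceeded the highest Petri value of 7.40. The difference was 0.96 ± 0.13 in controls (1.95-fold, limma adjusted p = 5.78e-05) and 1.11 ± 0.13 in treated cells (2.16-fold, adjusted p = 2.13e-05). The means were ordered microsystem control, microsystem treated, Petri control and Petri treated, with overlap only between the upper 2.

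MLXIP (probe set 7959361) and MLX (probe set 8007290) did not share this rise. MLXIP, the gene of MondoA, which senses glucose in most tissues, was at 8.03, 7.91 and 7.77 in microsystem controls and at 8.08, 8.07 and 8.04 in treated cells. Its culture difference was -0.10 ± 0.09 in controls (adjusted p = 0.376) and -0.14 ± 0.09 in treated cells (adjusted p = 0.225), where all Petri arrays were higher. Among its ordered means, only Petri treated (8.21) and microsystem treated (8.07) were neighbours without overlap. MLX, the partner of both factors, stood at 8.35, 8.40 and 8.55 in Petri controls and at 8.33, 8.30 and 8.11 in microsystem controls. The MLX difference of -0.19 ± 0.10 did not pass in controls (limma adjusted p = 0.137). In treated cells MLX was at 8.32, 8.41 and 8.47 in Petri dishes and at 8.26, 7.99 and 7.95 in the microsystem, lower by 0.33 on the log2 scale (-0.33 ± 0.10, adjusted p = 0.0154). That call was lost without microsystem treated replicate 2 (adjusted p = 0.0607) or 3 (0.0616) or Petri treated replicate 3 (0.0627). Its ordered group means, from Petri control at 8.44 to microsystem treated at 8.07, had only overlapping neighbours.

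KLF10 (probe set 8152215), a zinc finger repressor that responds early to TGF-beta and that glucose induces in hepatocytes, was also higher in the microsystem. Petri controls gave 8.08, 8.33 and 8.32 and Petri treated cells 8.45, 8.32 and 8.50. Microsystem controls gave 9.17, 9.13 and 8.91 and microsystem treated cells 9.16, 9.31 and 9.12, all above the Petri values. The difference was 0.83 ± 0.10 in controls (1.78-fold, limma adjusted p = 2.19e-05) and 0.77 ± 0.10 in treated cells (1.71-fold, adjusted p = 4.38e-05). Within each culture the control and treated ranges overlapped.

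Of the 3 remaining arrestin-domain genes, ARRDC1 alone was higher in the microsystem in both comparisons. ARRDC1 (probe set 8159692) drives the budding of small vesicles at the cell surface. It was nearly constant in Petri dishes, at 7.07, 7.12 and 7.06 in controls and at 7.08, 7.13 and 7.07 in treated cells. In the microsystem it gave 7.52, 7.57 and 7.52 in controls and 7.73, 7.79 and 7.58 in treated cells. The difference was 0.45 ± 0.07 in controls (1.37-fold, limma adjusted p = 0.000269) and 0.60 ± 0.07 in treated cells (1.52-fold, adjusted p = 3.2e-05). ARRDC1 ranked 2078th and 1059th among 13199 genes by these differences, so many genes differed more.

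ARRDC2 (probe set 8026915) gave 6.83, 6.93 and 7.18 in Petri controls and 6.74, 6.67 and 6.72 in microsystem controls, lower by 0.26 on the log2 scale (-0.26 ± 0.09, limma adjusted p = 0.0329). This call was lost without Petri control replicate 2 (adjusted p = 0.0503) or 3 (0.16), without microsystem control replicate 1 (0.0509), 2 (0.0929) or 3 (0.0578), and without both microsystem arrays numbered 3 (0.0592). Without Petri control replicate 3, the highest array, the difference was -0.16. In treated cells ARRDC2 was at 6.87, 6.84 and 6.89 in Petri dishes and at 6.88, 6.71 and 6.69 in the microsystem, a difference of -0.10 ± 0.09 (adjusted p = 0.4). ARRDC3 (probe set 8113073) was at 8.77, 9.03 and 9.14 in Petri controls and 8.57, 8.97 and 9.11 in Petri treated cells, and its culture differences of 0.14 ± 0.15 and -0.13 ± 0.15 did not pass (adjusted p = 0.482 and 0.541). All neighbouring group ranges of ARRDC2 and ARRDC3 overlapped.

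In treated cells 5 of the 9 genes were higher in the microsystem (TXNIP, ARRDC4, ARRDC1, MLXIPL and KLF10) and MLX was lower, against 41.4% of all genes that passed, 22.6% upwards and 18.9% downwards. The median of the 9 was 0.60. Ranges were apart upwards for these 5 genes in both culture comparisons. Downwards they were apart for ARRDC2 and MLX in controls and for MLX and MLXIP in treated cells. Of all genes, 52.4% in controls (29.5% upwards, 22.9% downwards) and 52.9% in treated cells (28.1% upwards, 24.8% downwards) had ranges apart. Without both microsystem arrays numbered 3, 5 of the 9 passed in controls, where ARRDC2 was lost, and 5 in treated cells, where TXNIP was lost.

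**Figure D3:**
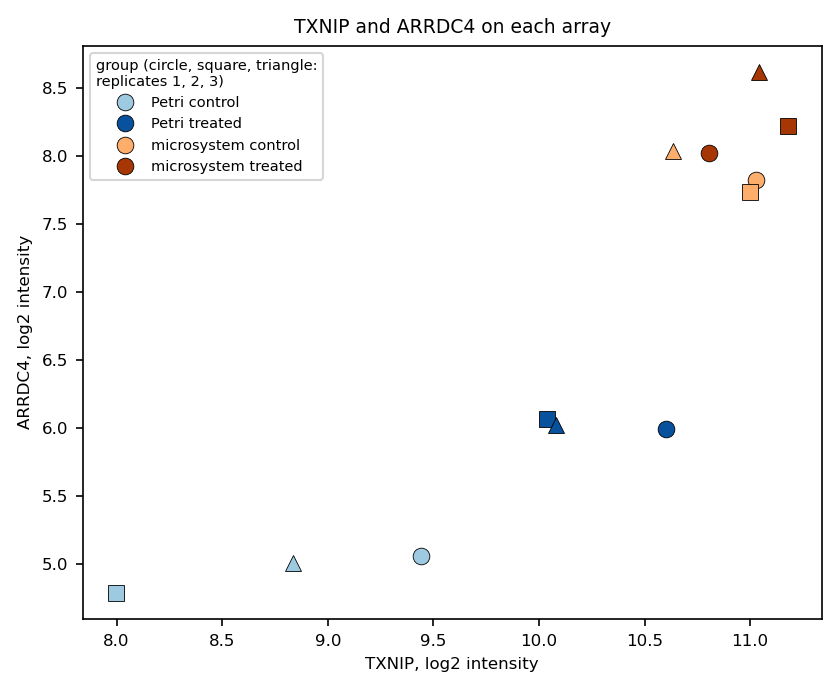
TXNIP against ARRDC4, both as log2 intensity, with 1 point per array (colour for the group, circle, square and triangle for replicates 1, 2 and 3). The 3 Petri control arrays lie lowest in both genes, the 3 Petri treated arrays between, and the 6 microsystem arrays highest, with TXNIP at 10.64 or more and ARRDC4 at 7.74 or more.

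Across the 12 arrays TXNIP and ARRDC4 correlated with r = 0.88, a description over points that fall into 4 groups and share their arrays. After subtracting group means the r of their deviations was 0.27. ARRDC4 and KLF10 had r = 0.95 over the 12 arrays and -0.52 for the deviations, and ARRDC1 and MLXIPL 0.94 and 0.70. ARRDC1 and KLF10 had 0.96 and 0.32, and ARRDC1 and ARRDC4 0.92 and -0.75. For MLXIPL and ARRDC4 the values were 0.83 and -0.78, and for MLXIPL and TXNIP 0.62 and -0.18. The 5 genes most like TXNIP by Pearson's r over the 12 arrays were TPD52L2, UGGT1 and EDC4 (0.958 each), GRB2 (0.950) and RNF157 (0.949). For the deviations the r of these genes with TXNIP was 0.65 to 0.89. Their group means differed far less than those of TXNIP, for example from 8.52 in Petri controls to 8.82 in microsystem treated cells for EDC4. Most like ARRDC4 were IPO13 (0.993), SRXN1 (0.991), RRP36 (0.990), UFD1 and NOP9 (0.985 each). For the deviations the r with ARRDC4 was 0.38, 0.57, 0.52, 0.10 and 0.65 in that order. SRXN1, the sulfiredoxin gene, had group means of 8.38 in Petri controls, 8.72 in Petri treated, 9.58 in microsystem control and 9.71 in microsystem treated cells.

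Other genes that ChREBP and MondoA are known to drive were taken as a list of 19, of which 18 had a probe set and 16 were tested. In untreated cells 10 of the 16 were higher in the microsystem and 1 was lower (8 to 10 and 1 to 2 over the alternatives), against 26.5% and 18.3% of all genes, with a list median of 0.64 against 0.01 for all genes. The fatty acid synthase gene FASN was higher by 1.19 ± 0.15, PNPLA3 by 1.17 ± 0.16 and the citrate lyase gene ACLY by 1.13 ± 0.11. Which factor moved the list genes was not tested. BHLHE40, a clock repressor that hypoxia also induces, was lower by 1.24 on the log2 scale (-1.24 ± 0.18, limma adjusted p = 9.65e-05). PKLR, the liver pyruvate kinase gene and the classic target of ChREBP, differed by -0.00 ± 0.11 (adjusted p = 0.987). In treated cells 9 were higher and 2 lower, against 22.6% and 18.9% of all genes, with a median of 0.53. Under acetaminophen in Petri dishes, where TXNIP and ARRDC4 rose, 3 of the 16 fell (PNPLA3 by 0.67, GCKR by 0.51 and PKLR by 0.40) and the other 13 did not pass, where 1.98% of all genes fell. These 3 calls held in 20, 17 and 18 of 24 alternatives, and the count was 0 without Petri control replicate 2, Petri treated replicate 1 or Petri treated replicate 3, and 1 without Petri control replicate 3 or Petri treated replicate 2. Without Petri control replicate 1 it was 2, but PNPLA3 and GCKR were lost (adjusted p = 0.0645 and 0.0968). PKLR was also lost with array medians set equal (0.0518), and GCKR without microsystem treated replicate 1 (0.051). In the microsystem GPD1 fell by 1.03, ELOVL6 by 0.55 and PKLR by 0.45, where 2.67% of all genes fell. The count was 2 without microsystem control replicate 2 or microsystem treated replicate 2 or 3, and 1 without both microsystem arrays numbered 3. PKLR was also lost with only the microsystem arrays in the fit (adjusted p = 0.0916).

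Genes for glucose entry and for making or using glucose 6-phosphate, the signal that both factors sense, made a list of 13, of which 10 were tested. In controls 5 were lower in the microsystem and 2 higher, against 18.3% and 26.5% of all genes, with a median of -0.41 against 0.01. The hexokinase gene HK2 was lower by 2.55 ± 0.17 on the log2 scale (-2.55, limma adjusted p = 2.26e-07), the glucose transporter genes SLC2A3 and SLC2A2 differed by -2.21 ± 0.35 and -1.11 ± 0.24, and HKDC1 was higher by 0.89 ± 0.11. These 4 calls held in all 23 alternatives. In treated cells 5 were lower and 2 higher, against 18.9% and 22.6% of all genes, with HK2 at -3.15 ± 0.17. Under acetaminophen 1 of the 10 fell in Petri dishes, HKDC1 by 0.43, where 1.98% of all genes fell. In the microsystem 3 of the 10 fell, HK2 by 0.60, PGM1 by 0.44 and GPI by 0.39, where 2.67% of all genes fell. Each of these 4 calls was lost when some single arrays of its own comparison were left out, HKDC1 without any Petri control or Petri treated replicate 1 or 3 and the other 3 genes without replicate 2 of either microsystem group. PGM1 and GPI were also lost without microsystem treated replicate 3, HK2 without microsystem control replicate 3 or microsystem treated replicate 1, and HK2 and PGM1 without Petri control replicate 2 or Petri treated replicate 2 or 3. With only the microsystem arrays in the fit HK2, PGM1 and GPI were lost as well (adjusted p = 0.114, 0.132 and 0.0821). PGM1 was also lost with array medians set equal (0.0519) and without both microsystem arrays numbered 3 (0.0525). The adjusted p was up to 0.0956 for HKDC1, 0.149 for HK2, 0.135 for PGM1 and 0.0821 for GPI over the alternatives.

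Of 8 genes of the thioredoxin system, to which the protein that TXNIP binds belongs, 7 were higher in the microsystem in controls and 6 in treated cells (5 to 8 and 4 to 6 over the alternatives), against 26.5% and 22.6% of all genes, with a median of 0.49 in each. In controls the thioredoxin gene TXN was higher by 0.88 ± 0.09 (limma adjusted p = 6.19e-06) and SRXN1 by 1.19 ± 0.09. Under acetaminophen 1 of the 8 rose in Petri dishes, against 8.38% of all genes, SRXN1 by 0.34 ± 0.09 (adjusted p = 0.0244). That call was lost without replicate 2 or 3 of either Petri group (up to 0.108) and after quantile normalization (0.0553). In the microsystem limma called 0 of the 8, against 9.06% of all genes, with 2 at an unadjusted p under 0.05. TXNRD1 came nearest at 0.35 ± 0.14 (adjusted p = 0.126), and it passed with the replicate block (0.031) and with the block within each culture (0.0147). Of the MAX network, whose members compete for E-boxes and of which MXD1 and MXD4 can also pair with MLX, 9 genes were tested. In microsystem controls 2 were higher and 3 lower, against 26.5% and 18.3% of all genes. MXI1 differed by -1.23 ± 0.12, MYC by -0.67 ± 0.14, MXD1 by -0.48 ± 0.155 and MXD4 by 0.73 ± 0.11. The MXD1 call was lost without microsystem control replicate 3 or Petri control replicate 2 or 3 (limma adjusted p up to 0.0849). Between treated cultures 3 were higher and 4 lower, against 22.6% and 18.9% of all genes. MXD1 differed there by -0.58 ± 0.155 and MXD4 by 0.62 ± 0.11. MYC fell under acetaminophen in Petri dishes by 0.48 ± 0.14 (adjusted p = 0.0411). This call was lost without any 1 of the 6 Petri arrays, microsystem control replicate 2 or microsystem treated replicate 1 (up to 0.135). It was also lost with array medians set equal (0.0583) and with no filter (0.0512). MXD3 rose in Petri dishes by 0.33 ± 0.09 (adjusted p = 0.0341), a call lost without any Petri control or Petri treated replicate 1 or 3 (up to 0.13). Quantile normalization lost it as well (0.0646). So 1 of the 9 rose and 1 fell there, against 8.38% and 1.98% of all genes.

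**Figure D4:**
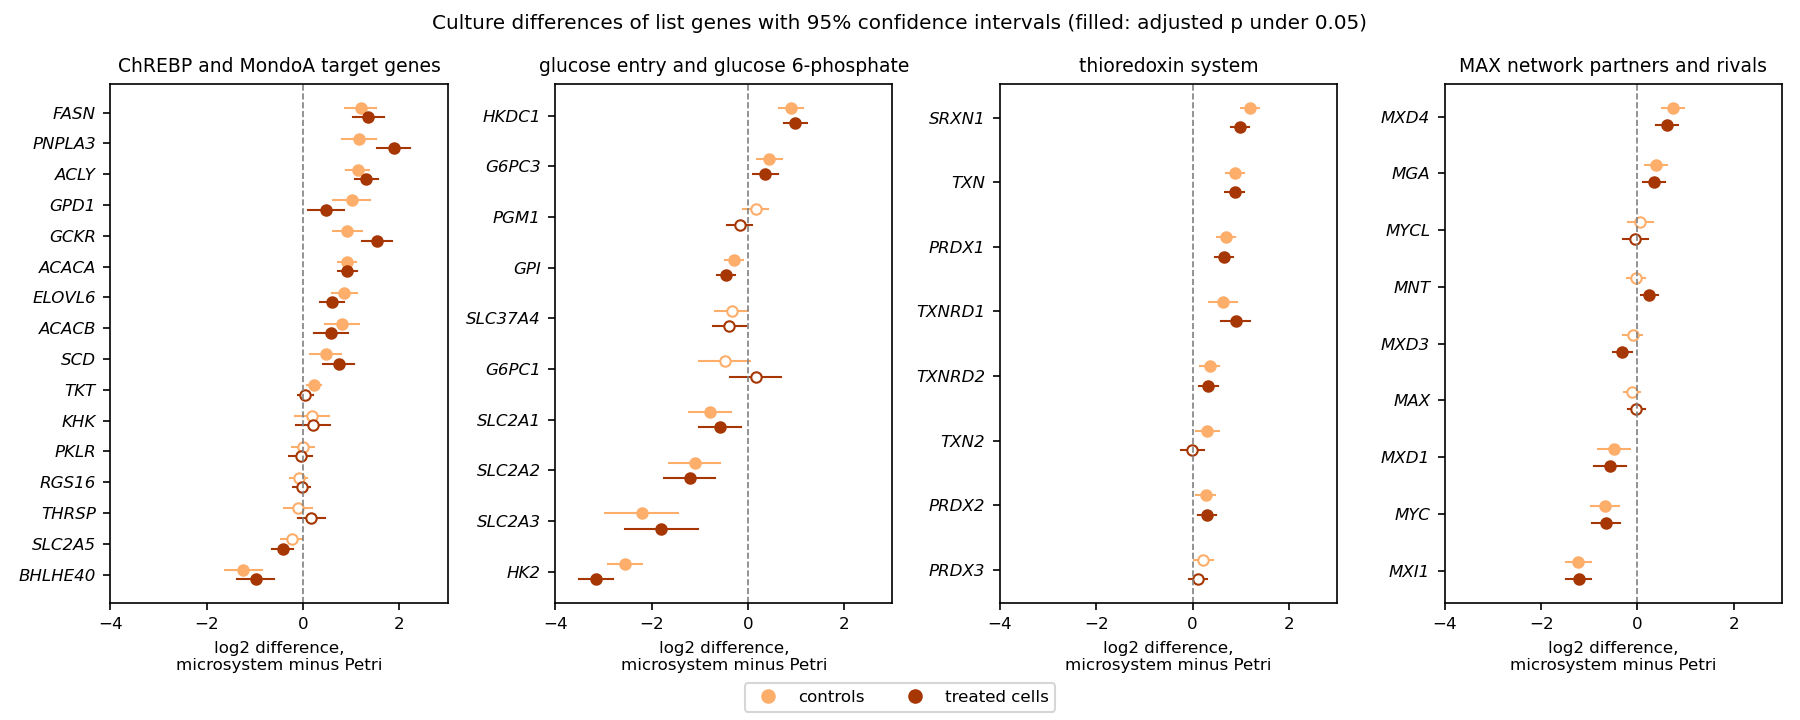
Culture differences (log2, microsystem minus Petri) of the tested genes of 4 lists with 95% confidence intervals, in controls (light) and treated cells (dark), filled where the limma adjusted p was under 0.05. FASN, PNPLA3 and ACLY lie to the right, THRSP and PKLR near 0, and HK2 lies farthest to the left, at -2.55 in controls and -3.15 in treated cells.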

How the data were processed

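Per the submitters' processing notes, the authors used RMA and Affymetrix Expression Console. The deposited log2 intensities have 1 column per array, and the sources used here give no version or genome build. RMA sets array distributions nearly equal, so a shift of all genes cannot be seen. Probe sets were named by the array's annotation, where 19158 of 32321 carried a single symbol, 1388 more than 1 and 11775 no symbol here. A gene was tested if at least 3 arrays exceeded their 40th percentile, which kept 13199 of 18404 genes and all 9 described. ARRDC4 passed this filter although 1 Petri control array was under it.

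One model with a coefficient per group was fitted to 12 arrays in limma 3.58.1 (R 4.3.3), with 8 residual and 5.35 prior degrees of freedom. Two-sided p-values were adjusted by Benjamini-Hochberg over all 13199 genes, with a threshold of 0.05. SE and intervals are those of the moderated fit. The procedure was run on simulated data with independent noise, few changed genes and no replicate effect. That run checks the code, not how well the p-values hold in these data.

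The 9 genes and all lists were chosen with earlier results of these data known. List genes were picked as the up to 4 with the largest differences past the threshold, or the one with the smallest adjusted p. The text gives only some of the genes so picked. The lists were ChREBP and MondoA targets, glucose entry and glucose 6-phosphate, MAX network, NEDD4-type ligases, thioredoxin system, AMP-activated kinase, other arrestins, KLF10 relatives and FOXO targets. PKLR in controls and IGFBP1 under acetaminophen in Petri dishes were named after their values were seen.

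Replicate numbers were checked for pairing by correlating deviations from group means between same-numbered arrays. The r was 0.48, 0.19 and 0.31 for treatment in Petri dishes, 0.11, 0.07 and 0.60 in the microsystem, 0.18, -0.03 and 0.13 for culture in controls, and 0.14, -0.14 and 0.13 in treated cells. All r for treatment were positive, so pairing there is possible, but the labels do not say what replicate numbers mark. The main model had no block, and blocks were alternatives. In Petri dishes TXNIP and ARRDC4 passed in all 24 alternatives (limma adjusted p up to 0.018 and 0.00302). Alternatives were a replicate block over all arrays or within each culture, only the arrays compared, quantile normalization, equal array medians, a filter at the 60th percentile or none, the mean of probe sets or every probe set by itself, array weights, an intensity trend and leaving out each array. Leaving out both microsystem arrays numbered 3 was added after the values were seen.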

Additional observations from a re-analysis of the deposited data

How the results depend on the processing

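Of 45 differences (9 genes in 5 comparisons), 14 passed, and 11 of these passed under every alternative run. The other 3, ARRDC2 in controls and TXNIP and MLX between treated cultures, are given above, and ARRDC2 was also lost with only the arrays compared (adjusted p = 0.0761). Of the 31 that did not pass, 2 passed under some alternative. They were MLXIP in Petri dishes with array weights (adjusted p = 0.0174) and ARRDC4 in the microsystem. With the replicate block the count of the 9 genes that passed under treatment in the microsystem was 1, and with the replicate block within each culture it was also 1, ARRDC4 in each case (adjusted p = 0.0362 and 0.0159); leaving out single arrays gave 0 to 1. For the 9 genes the block changed no other call. No difference that passed changed sign. Of those that did not, 8 changed sign somewhere: ARRDC1 in Petri dishes was -0.027 after quantile normalization and -0.004 with array weights, MLX there 0.005 with equal array medians, KLF10 in the difference of effects 0.013 after quantile normalization, and TXNIP in the microsystem -0.020 without both arrays numbered 3. Leaving out single arrays gave ranges of -0.009 to 0.030 for ARRDC1, -0.209 to 0.061 for ARRDC3 and -0.076 to 0.020 for MLX in Petri dishes, of -0.004 to 0.223 for TXNIP, -0.011 to 0.080 for ARRDC2 and -0.173 to 0.055 for MLXIPL in the microsystem, and of -0.107 to 0.037 for MLXIP and -0.134 to 0.026 for KLF10 in the difference of effects. The cause was not tested. With array weights 3602 of all genes passed in Petri dishes in place of 1367, and with only the arrays compared 446 passed in the microsystem in place of 1196. For the difference of effects 54 passed with array weights, 24 with the block within each culture and 18 with the block over all arrays, in place of 4.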

Other observations

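Genes whose products act on or beside the alpha-arrestins were also measured. The ubiquitin ligases of the NEDD4 type, the enzymes that alpha-arrestins bring to their cargo, had 7 tested genes. In microsystem controls 1 was higher and 3 were lower than in Petri controls, against 26.5% and 18.3% of all genes. NEDD4L differed by -0.70 ± 0.14 (limma adjusted p = 0.000993), SMURF2 by -0.76 ± 0.12 and WWP2 by 0.44 ± 0.11. In treated cells 2 were lower and 0 higher, against 18.9% and 22.6% of all genes. These were NEDD4L, by 0.65 on the log2 scale (-0.65 ± 0.14), and SMURF2 (-0.41 ± 0.12, a call lost without microsystem treated replicate 1 or Petri treated replicate 3). Under acetaminophen 1 of the 7 rose in the microsystem, against 6.39% of all genes, SMURF2 by 0.44 ± 0.12 (limma adjusted p = 0.0391, up to 0.172 over the alternatives). That call was lost without replicate 2 or 3 of either microsystem group and without Petri control replicate 2 or Petri treated replicate 2 or 3. It was also lost with only the microsystem arrays in the fit (0.113). In Petri dishes 0 of the 7 passed in limma, against 10.4% of all genes, and 0 also at an unadjusted p under 0.05. NEDD4 came nearest there at 0.19 ± 0.09 (adjusted p = 0.191, and 0.0328 with array weights). The beta-arrestin gene ARRB1, the single tested gene of 5 other arrestins, was higher in the microsystem by 1.31 ± 0.11 in controls (adjusted p = 1.44e-06) and by 0.935 ± 0.11 in treated cells.

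AMP-activated kinase, an energy sensor that marks TXNIP protein for breakdown, had 7 tested genes, of which 4 were lower in microsystem controls and 3 between treated cultures, against 18.3% and 18.9% of all genes. The subunit gene PRKAB2 differed by -1.37 ± 0.11 in controls (limma adjusted p = 7.83e-07) and by -1.27 ± 0.11 in treated cells. In the microsystem 1 of the 7 rose under acetaminophen, against 6.39% of all genes, PRKAA2 by 0.35 ± 0.10 (adjusted p = 0.0371, up to 0.139 over the alternatives). That call was lost without the same single arrays as SMURF2 and with only the microsystem arrays in the fit (0.0844). Of 5 relatives of KLF10, 1 was higher and 2 were lower in microsystem controls, against 26.5% and 18.3% of all genes. KLF11 was higher by 0.57 ± 0.14 (limma adjusted p = 0.00485), and KLF16 and KLF13 were lower (-0.37 ± 0.09 and -0.21 ± 0.07). The KLF13 call was lost without replicate 2 or 3 of either control group and with only the control arrays in the fit (0.0728). With the mean of its probe sets KLF13 differed by -0.037 (adjusted p = 0.702). Of 8 tested FOXO target genes, 3 were lower in microsystem controls, against 18.3% of all genes, among them PCK1, an enzyme of glucose production, at -0.92 ± 0.23 (adjusted p = 0.00584) and -1.14 ± 0.23 in treated cells. IGFBP1, the gene of an insulin-regulated secreted binding protein, differed by -0.65 ± 0.195 in controls (lost without microsystem control replicate 2, adjusted p = 0.0762) and by 0.86 ± 0.195 in treated cells. Under acetaminophen in Petri dishes IGFBP1 differed by -0.63 ± 0.195, which did not pass (limma adjusted p = 0.0554). Its difference of treatment effects was 1.51 ± 0.275 (adjusted p = 0.0776), which passed with the replicate block (0.038), with the block within each culture (0.0053), with array weights (0.011) and without microsystem control replicate 3 (0.0422). In Petri dishes 1 of the 8 rose under acetaminophen, against 8.38% of all genes. This was SESN1, which p53 also drives, at 0.69 ± 0.09 (limma adjusted p = 0.000346). Under acetaminophen in the microsystem 3 of the 8 rose and 1 fell, against 6.39% and 2.67% of all genes. IGFBP1 rose by 0.88 (adjusted p = 0.015), CCNG2 by 0.43 (0.0263) and SESN1 by 0.30 (0.0457), and KLF15 fell by 0.51 (0.0183). Each of these 4 calls was lost without some single arrays, and all 4 without microsystem control replicate 2. IGFBP1 was also lost without microsystem treated replicate 3, KLF15 without microsystem treated replicate 2 or 3, and CCNG2 without microsystem control replicate 3 or microsystem treated replicate 1 or 2. SESN1 was lost without any 1 of the 6 microsystem arrays, Petri control replicate 2 or Petri treated replicate 2. Array weights (0.071) and fitting with no filter (0.0597) lost SESN1 too. With only the microsystem arrays in the fit IGFBP1, CCNG2 and SESN1 were lost (adjusted p = 0.0591, 0.0858 and 0.0884).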
